A study of Homo sapiens with 12 samples.

Results

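TC32 cells treated for 6 hours with 500 nM THZ531 were compared with TC32 cells treated for 6 hours with 100 nM THZ531, to describe what the higher dose added. The comparison used 2 arrays at each dose, 4 of the 12 arrays of the series, and these were chosen by the cell line and dose in their labels, not by measured values. TC32 and A673, the other line of the series, are established human Ewing sarcoma cell lines. The same model held 2 arrays of TC32 with the solvent DMSO and 2 arrays each of A673 at 500 nM, at 100 nM and with DMSO, all after 6 hours. The sample labels spell the compound THZ_5_31_1 and the text of the series THZ531, and they name no engineered allele in any group. For the DMSO arrays the labels list a 100 nM dose too, which was taken not to apply. The 2 arrays of a group are called biological replicates of 1 line. A p-value here measures only the spread between such samples, estimated over all 12 arrays of both lines together.

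CDK12 and CDK13 are kinases that act with cyclin K and phosphorylate the tail of RNA polymerase II while it elongates a transcript, and THZ531 binds both covalently. Loss of their activity is known to let polymerase terminate early at polyadenylation sites inside genes, and loss of CDK12 in particular is known for lower expression of DNA repair genes. In Ewing sarcoma the fusion protein EWS/FLI, which joins part of EWSR1 to the DNA-binding part of the ETS factor FLI1, drives the tumour's own expression program. Transcripts with short half-lives, such as those of the immediate-early genes, report a change in transcription sooner than stable ones within a treatment of a few hours.

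The values were log2 signals, 1 per gene, and each gene's difference is given as 500 nM minus 100 nM. Of 16937 genes with values of 3 decimals, the 10162 with a mean signal of at least 5.94 over the 12 arrays were tested with limma, at an adjusted p of 0.05 after Benjamini-Hochberg correction. Differences are given on 2 scales: the values as deposited, and the values relative to the array medians, for which each array was centred on its median over all 16937 genes. Per the labels' protocols, external RNA controls went into the total RNA, and whether the authors scaled the arrays to them is not known. An equal shift of all genes can therefore be a difference in RNA amount or in scaling, and in RNA of whole cultures fewer cells and less RNA per cell cannot be told apart. Over the tested genes the TC32 array medians were 8.08 and 7.94 in DMSO cells, then 7.72 and 7.72 at 100 nM and 6.87 and 6.88 at 500 nM, so both 500 nM arrays lay below both 100 nM arrays. Replicates correlated across genes at 0.9951 at 500 nM and 0.9941 at 100 nM, and genes are not independent replicates. Of 12 Ewing sarcoma markers 11 were measured and tested, and their mean level was 9.14 on both 500 nM arrays against 9.85 to 9.89 on the 100 nM arrays. FLI1 and IGF1 had 500 nM means under 5.94, and CD99, a surface antigen of the tumour, was at 13.2 and 13.2 (500 nM) against 13.3 and 13.2 (100 nM). Of the markers of other cell types, 2 of 5 haematopoietic, 2 of 6 epithelial, 3 of 6 endothelial and fibroblast and 1 of 3 muscle markers had means above 5.94, among them CD79A, CLDN4, MUC1 and DES. Their lists' mean levels at 500 nM and at 100 nM were 5.21 to 5.33 and 5.39 to 5.61 (haematopoietic), 5.53 to 5.54 and 5.73 to 5.78 (epithelial), 6.03 to 6.16 and 6.34 to 6.54 (endothelial and fibroblast), and 5.44 to 5.45 and 5.53 to 5.69 (muscle). PTPRC, EPCAM and MYOD1 lay under 5.94 on all 4 arrays, and the part of other cell types in the results was not tested. COL3A1 had 8.07 and 8.10 at 500 nM and 9.71 and 9.57 at 100 nM.

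At the higher dose most tested transcripts were lower as deposited, and few were higher. As deposited, 5636 of the 10162 tested genes (55.5%) were lower at 500 nM and 112 (1.10%) were higher, with a median difference of -0.52 on the log2 scale. At least 2-fold differences were called for 2604 lower and 23 higher genes, and 511 were lower by at least 4-fold. The 500 nM mean lay under 5.94 for 1635 of the 5636 lower genes, where a fitted difference is no measure of size. The shift that centring removed was -0.59. On the relative scale 3021 genes (29.7%) were lower and 2961 (29.1%) were higher, with a median of 0.07. Of the called genes 49.5% were higher on this scale, against 1.95% as deposited. Centring sets the middle of each array to zero, so a near-even split is largely built into this scale and is no separate result. All 3021 of the genes lower on the relative scale were also called lower as deposited, and all 112 genes called higher as deposited were called higher on the relative scale. Centring moved every gene's difference up by the same amount, so this overlap is also largely built in and is no separate result. Leaving out single arrays lowered the 112 to 65 (replicate 1 at 500 nM), 66 (replicate 2 at 500 nM) and 61 (replicate 1 at 100 nM). Which genes centre the arrays also mattered: with the median of the tested genes in its place, a choice made after the data were seen, 5266 genes were higher.

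**Figure D1:**
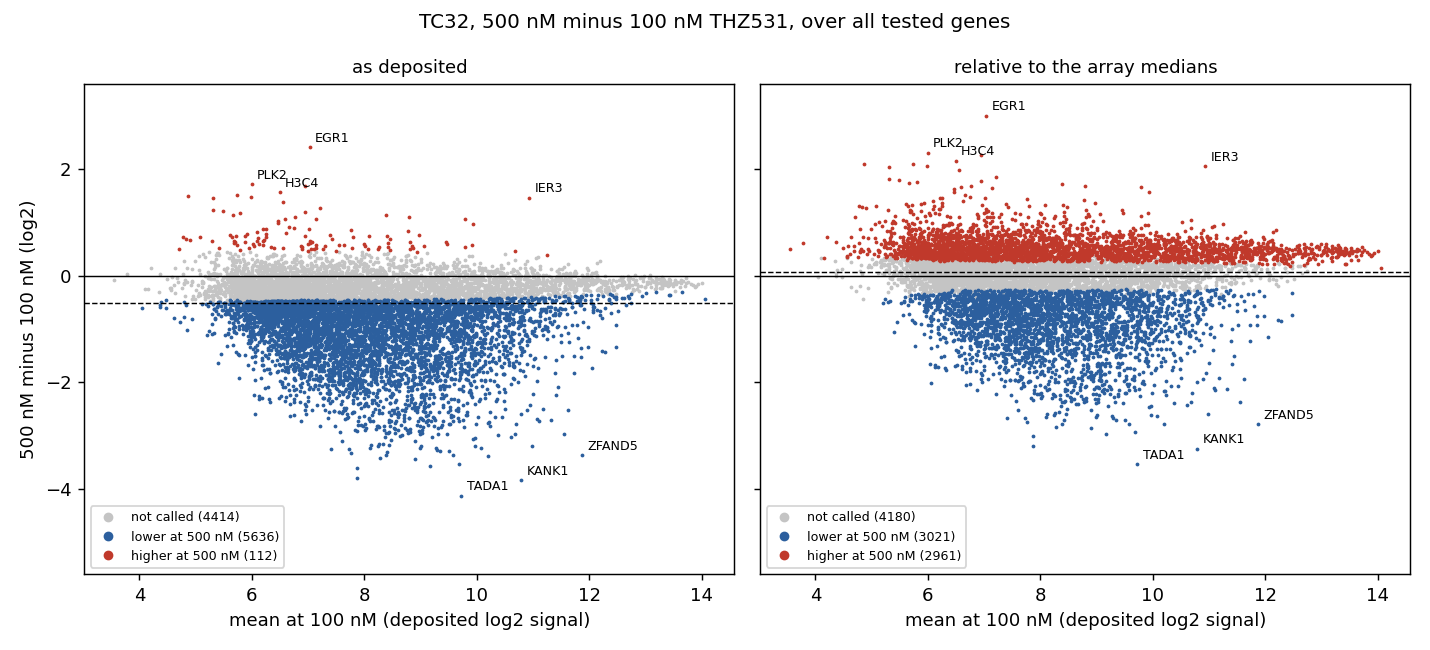
Each point is 1 of the 10162 tested genes, with its mean log2 signal at 100 nM on the x axis and its 500 nM minus 100 nM difference (log2) on the y axis, as deposited on the left and relative on the right. Blue and red mark genes called lower and higher, and the dashed line is the median, -0.52 on the left and 0.07 on the right. EGR1 stands highest on both scales.

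The highest rise as deposited with both group means above 5.94 was that of EGR1, an immediate-early zinc finger transcription factor gene. EGR1 had 6.57 and 6.27 in DMSO cells, then 6.97 and 7.08 at 100 nM and 9.55 and 9.32 at 500 nM. Every array at the higher dose lay above every array at the lower one. The difference was 2.41 ± 0.21 (log2, SE, n = 2 against 2), 5.31-fold as deposited, and 3.00 ± 0.12 on the relative scale (limma, adjusted p = 9.14e-14). The next was PLK2, a polo-like kinase gene known as an early response and p53-responsive gene, with 4.54 and 4.92 in DMSO cells, then 6.03 and 5.97 at 100 nM and 7.69 and 7.74 at 500 nM. Both doses were apart from each other on all arrays, at 1.71 ± 0.22 as deposited (3.28-fold) and 2.30 ± 0.17 on the relative scale. IER3, an early response gene of cell survival, already had a high signal and had 9.70 and 9.46 in DMSO cells, then 10.96 and 10.91 at 100 nM and 12.41 and 12.38 at 500 nM. Its groups did not overlap, and the difference was 1.46 ± 0.18 (2.75-fold).

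The 12 rises that the naming rule picked also held histone genes, small nucleolar RNAs and single genes of other kinds. H3C4, a histone H3 gene, had 6.00 and 5.78 in DMSO cells, then 6.50 and 6.48 at 100 nM and 8.27 and 7.85 at 500 nM, a difference of 1.57 ± 0.21 (2.97-fold). SNORA65, a guide RNA of ribosomal RNA modification, had 5.09 and 4.97 in DMSO cells, then 6.904 and 6.997 at 100 nM and 8.73 and 8.52 at 500 nM, a difference of 1.67 ± 0.21 (3.19-fold). For both genes the arrays of the 3 treatments lay in separate ranges that followed the dose. SAT1, the enzyme that acetylates spermidine and spermine, was higher by 1.13 (2.19-fold), and CCL2, a chemokine that attracts monocytes, by 1.10 (2.14-fold). CSKMT, a mitochondrial methyltransferase gene, was higher by 1.19, and the other histone genes named were H2AC8 (1.39), H2BC21 (1.26) and H3C8 (1.09). SNORA74A was higher by 1.47. For all 12 the 2 arrays at 500 nM lay above the 2 at 100 nM, as the rule required. At 100 nM their means lay above DMSO by 0.20 for H3C8 to 1.92 for SNORA65. For H3C8 the 100 nM and DMSO arrays overlapped, and that step did not pass limma's test (adjusted p = 0.586). The 12 do not stand for all 112 higher genes, of which 77 had a 100 nM mean below the DMSO mean and 35 above it. Both comparisons share the 100 nM arrays, so these counts are a description.

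**Figure D2:**
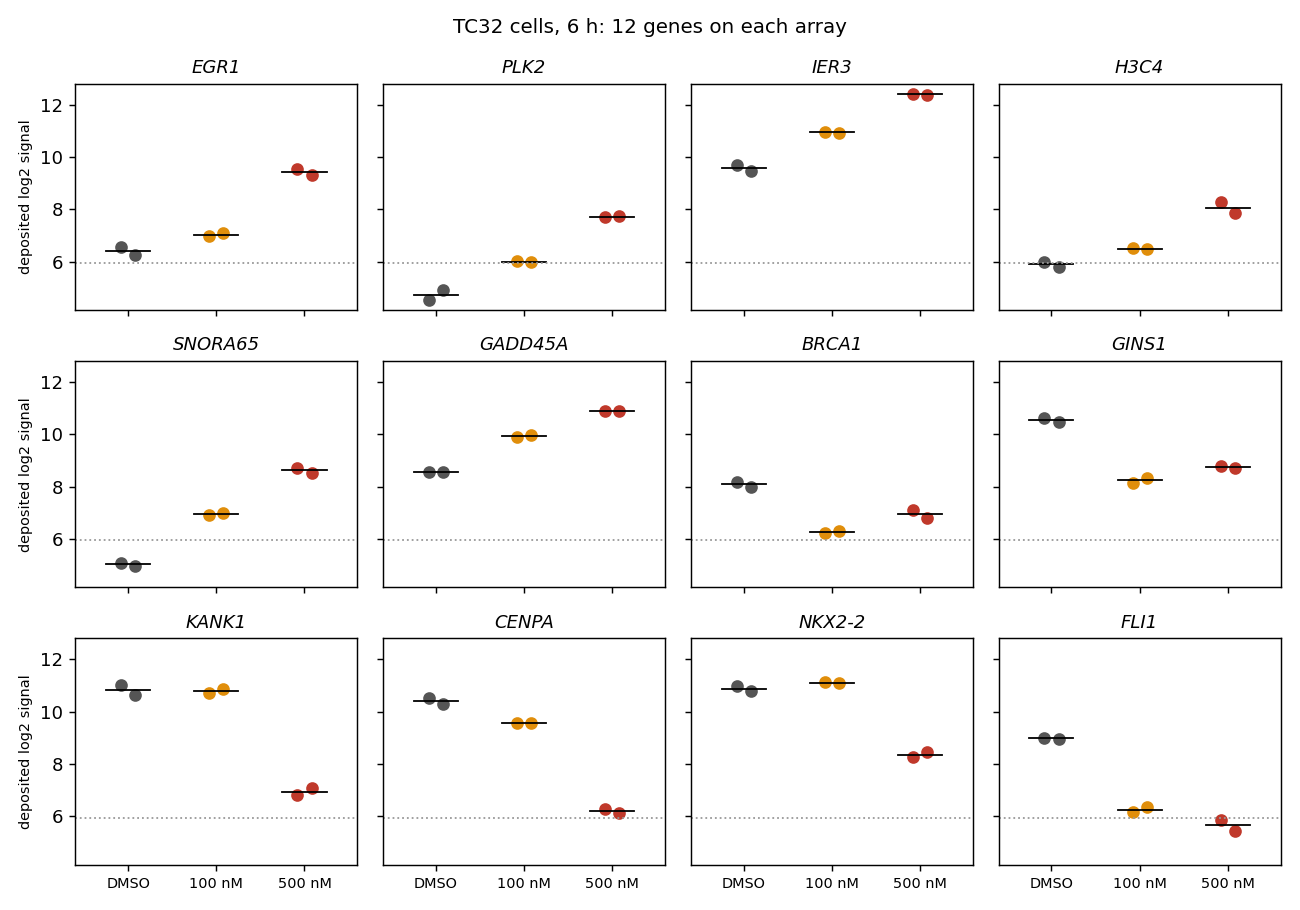
Deposited log2 signals of 12 genes on the 6 TC32 arrays, with 1 point per array, a bar at the mean of the 2 arrays and a dotted line at 5.94, the minimum mean for testing. EGR1, PLK2, IER3, H3C4, SNORA65 and GADD45A stepped up with dose, BRCA1 and GINS1 had their lowest signal at 100 nM, KANK1 and NKX2-2 were near DMSO at 100 nM and low at 500 nM, CENPA was lower at each dose, and FLI1 was already low at 100 nM.

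The promoters of 4 genes that rose together at the higher dose, and of 1 that fell, are shown because they hold letters that match known promoter motifs. They are from RefSeq on GRCh38.p14, run 5′ to 3′ on the gene's strand over 250 bases before and 50 after the start, and capitals mark matches. The regions are chr5:138465229-138465528 (plus strand) for EGR1, chr6:26199244-26199543 (minus strand) for H3C4, chr6:26216671-26216970 (plus strand) for H2AC8, chr1:149886633-149886932 (minus strand) for H2BC21 and chr2:233854486-233854785 (minus strand) for HJURP.
EGR1: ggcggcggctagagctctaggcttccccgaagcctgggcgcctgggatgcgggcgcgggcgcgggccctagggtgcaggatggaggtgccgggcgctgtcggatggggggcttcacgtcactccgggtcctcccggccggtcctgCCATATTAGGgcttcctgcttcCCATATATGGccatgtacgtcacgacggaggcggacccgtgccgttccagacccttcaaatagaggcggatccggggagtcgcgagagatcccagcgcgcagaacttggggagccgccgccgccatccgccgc
H3C4: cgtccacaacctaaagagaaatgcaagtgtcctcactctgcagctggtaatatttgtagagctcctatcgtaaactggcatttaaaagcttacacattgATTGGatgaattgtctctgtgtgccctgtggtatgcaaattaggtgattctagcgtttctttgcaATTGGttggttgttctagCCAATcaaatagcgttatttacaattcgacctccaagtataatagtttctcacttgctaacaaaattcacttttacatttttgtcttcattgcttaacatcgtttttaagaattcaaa
H2AC8: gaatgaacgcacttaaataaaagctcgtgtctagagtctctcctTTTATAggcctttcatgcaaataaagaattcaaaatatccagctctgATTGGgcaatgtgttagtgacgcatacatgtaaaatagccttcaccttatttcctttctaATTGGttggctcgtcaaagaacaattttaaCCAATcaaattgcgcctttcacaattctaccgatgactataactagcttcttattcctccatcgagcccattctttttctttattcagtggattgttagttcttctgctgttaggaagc
H2BC21: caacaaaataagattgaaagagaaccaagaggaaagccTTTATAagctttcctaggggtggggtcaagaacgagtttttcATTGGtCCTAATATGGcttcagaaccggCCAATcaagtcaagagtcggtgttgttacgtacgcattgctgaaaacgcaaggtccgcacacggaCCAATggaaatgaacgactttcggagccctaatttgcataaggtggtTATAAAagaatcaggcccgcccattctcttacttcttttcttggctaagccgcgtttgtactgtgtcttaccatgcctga
HJURP: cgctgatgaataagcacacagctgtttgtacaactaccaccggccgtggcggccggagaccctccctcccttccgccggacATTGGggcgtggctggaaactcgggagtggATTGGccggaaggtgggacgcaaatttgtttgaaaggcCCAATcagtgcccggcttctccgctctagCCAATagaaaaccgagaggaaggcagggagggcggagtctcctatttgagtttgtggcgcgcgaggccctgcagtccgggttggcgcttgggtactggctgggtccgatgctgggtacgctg

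The motifs searched on both strands were the TATA box (letters TATAAA), the CCAAT box, the cyclic AMP response element (letters TGACGTCA), the AP-1 site (letters TGANTCA), the CArG box that serum response factor binds, and the binding site of NRF1. A match is a description of letters, not of a bound site. The capitals in EGR1 are 2 CArG boxes, and this motif was in 1.29% of the 27305 promoters of the table, in 1.07% of those of tested genes and in 2.17% of those of genes called higher as deposited. The capitals in H3C4 are CCAAT boxes, read on either strand, and those in H2AC8 and H2BC21 are CCAAT and TATA boxes with 1 CArG box in H2BC21. In HJURP, a gene that fell, the capitals are also CCAAT boxes. CCAAT was in 35.7% of all promoters, in 37.0% of the 8408 promoters of tested genes, in 51.1% of the 92 found for genes called higher as deposited and in 42.2% of the 422 found for genes lower by at least 4-fold. The TATA box was in 5.78% of the promoters of tested genes, in 14.1% of those of the higher genes and in 4.27% of those of the genes lower by at least 4-fold. The NRF1 site was in 12.2% of the promoters of tested genes, in 4.35% of those of the higher genes and in 17.1% of those of the genes lower by at least 4-fold. These shares carry no test.

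As deposited, the core histone genes had more members higher at 500 nM than any other of the lists, while the linker histone genes were lower. Among 25 tested replication-dependent histone genes, calls as deposited were 15 higher and 6 lower, beside 1.10% and 55.5% of all tested genes, with a median of 0.65 against -0.52 over all. All 15 were among the 21 core histone genes, of which 2 were lower, and their median was 0.88. The 4 tested H1 genes, which encode the linker histones, were all called lower as deposited, between -1.05 for H1-3 and -0.52 for H1-5. On the relative scale 19 core genes were higher, and of the H1 genes 1 was lower, with a median of -0.11. H1-3 had 6.71 and 6.60 at 500 nM against 7.65 and 7.75 at 100 nM, and its relative difference of -0.46 had an adjusted p of 0.0236, which was lost without either 500 nM array or without replicate 2 at 100 nM. It was also lost under quantile normalisation (-0.22, adjusted p = 0.333), centred on the tested genes (-0.20, adjusted p = 0.343) and with the 2-decimal entries (adjusted p = 0.0602). The 6 lower calls were 3 without replicate 2 at 500 nM or without replicate 1 at 100 nM. H2AC11 had 6.91 and 6.63 at 500 nM against 5.08 and 5.55 at 100 nM, at least 1.77-fold higher counted from 5.94, while H2AC20 was at -0.71 and H4C3, the brightest of the list, had a difference of -0.21 that did not pass the test. Histone genes are near-identical copies of one another, so the signal of 1 member can include others.

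**Figure D3:**
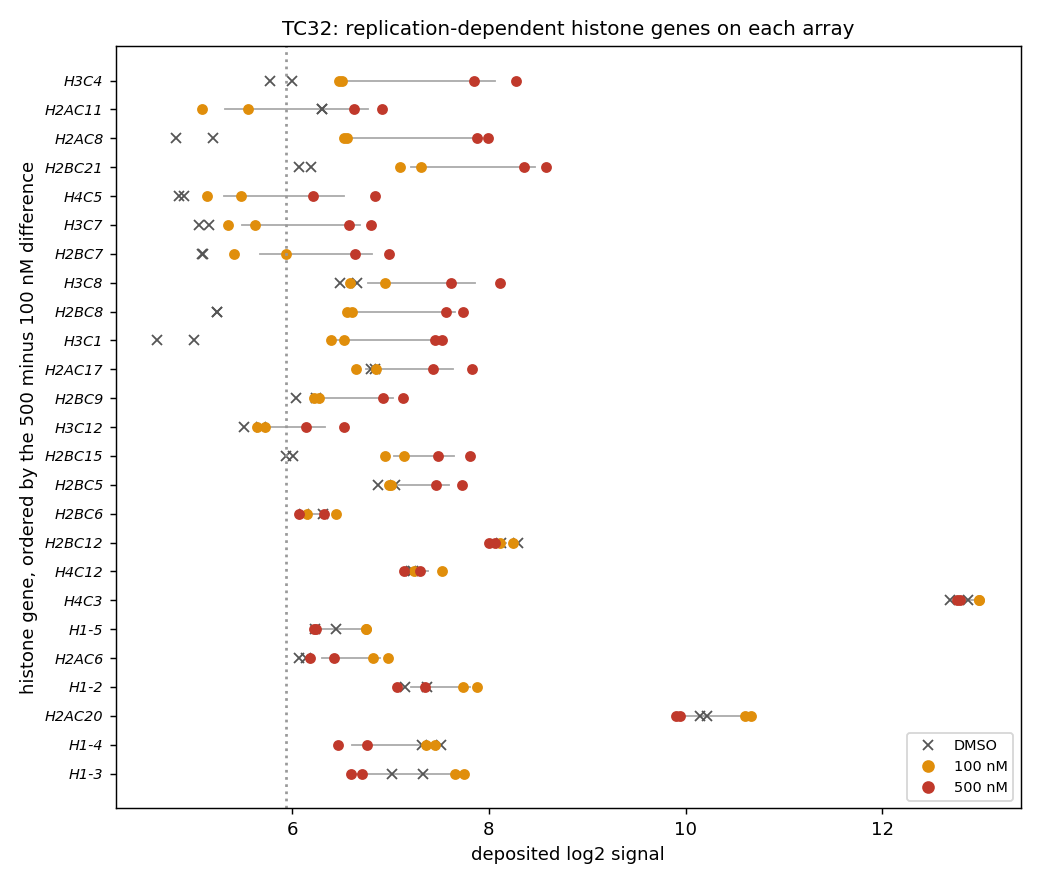
Deposited log2 signals of the 25 tested replication-dependent histone genes, ordered by their 500 nM minus 100 nM difference, with 1 mark per array, a grey line between the means at 500 nM and 100 nM and a dotted line at 5.94. The upper 15 genes have both 500 nM arrays to the right of both 100 nM arrays, and the 4 H1 genes stand among the lowest 6.

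Immediate-early and short-lived transcripts went both ways. Of 47 tested members 7 were higher and 30 lower as deposited, with a median of -0.56, and on the relative scale 17 were higher and 15 lower, beside 29.1% and 29.7% of all tested genes. The 7 were EGR1, PLK2, IER3 and, named after their values were seen, IER2 (1.07), ARC (0.74), JUNB (0.72) and IER5 (0.58). FOS, the partner of JUN proteins in AP-1, had 10.40 and 10.69 at 500 nM against 11.31 and 11.04 at 100 nM, and its difference was -0.63 as deposited and -0.04 on the relative scale. The lowest was CEBPB, a bZIP transcription factor gene of inflammation and stress, with 7.20 and 7.46 at 500 nM against 9.78 and 9.56 at 100 nM (-2.34 ± 0.20 as deposited, 5.05-fold lower). KLF2, a zinc finger factor gene of quiescence, was lower by 1.46 as deposited. MYC, a short-lived transcript and an amplifier of growth programs, had 11.11 and 11.01 in DMSO cells, then 11.47 and 11.40 at 100 nM and 10.36 and 10.63 at 500 nM. It was the 100 nM arrays that lay highest. The difference was -0.94 ± 0.17 as deposited and -0.35 ± 0.11 on the relative scale, where the adjusted p of 0.00965 became 0.217 without replicate 1 of the 500 nM arrays. With the arrays centred on the tested genes the relative difference of MYC was -0.0998 (adjusted p = 0.297).

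Small nucleolar RNAs, which guide the modification of ribosomal RNA, had 4 higher and 3 lower members of 19 tested as deposited, with a median of -0.08, and 1 lower without replicate 1 at 100 nM. Of all tested genes 1.10% were higher and 55.5% lower as deposited. Relative calls were 12 higher and 0 lower, beside 29.1% and 29.7% of all tested genes. The 500 nM mean lay under 5.94 for 6 of the 19. The 4 called higher as deposited were SNORA65, SNORA74A and, named after their values were seen, SNORA84 (1.05) and SNORD12B (0.98). SNORA78 was at -0.75 as deposited, and SNORA77 was at least 1.47-fold lower. Of 7 host genes, whose introns carry such RNAs, SNHG17 was higher by 0.81, and SNHG12 had 8.02 and 8.09 at 500 nM against 10.17 and 10.20 at 100 nM, lower by 2.13 (4.38-fold). SNHG7 was lower by 1.67. A small nucleolar RNA lies inside its host gene, and the deposited values do not tell which of the 2 RNAs gave a signal.

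Among the deepest falls with both means above 5.94, which the naming rule required and which a deep fall can meet only from a high signal at 100 nM, was KANK1. KANK1, which encodes an adaptor between the cytoskeleton and cell adhesions, had 11.01 and 10.62 in DMSO cells, then 10.70 and 10.87 at 100 nM and 6.81 and 7.09 at 500 nM. Only the 500 nM arrays stood apart. The difference was -3.84 ± 0.20 as deposited (14.3-fold lower) and -3.25 ± 0.14 on the relative scale (adjusted p = 1.19e-13). ZFAND5, a zinc finger gene of protein degradation, had 11.69 and 11.45 in DMSO cells, then 11.87 and 11.86 at 100 nM and 8.23 and 8.76 at 500 nM (-3.37, 10.4-fold lower). FAM83D, a gene of the mitotic spindle, had 10.44 and 10.27 in DMSO cells, then 10.95 and 11.01 at 100 nM and 7.587 and 7.998 at 500 nM (-3.19), so its 100 nM arrays lay above both others. TOX3, a high mobility group protein gene, was at -3.52, and KANSL2, a subunit of an acetyltransferase complex, at -3.29. TGS1, the enzyme that hypermethylates the caps of small nuclear RNAs, was at -3.26 and the transcription factor gene ZNF217 at -3.23. For these 7 genes the 100 nM mean minus the DMSO mean lay between -0.03 (KANK1) and 0.62 (FAM83D) as deposited.

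For 3 more of the deepest falls, CENPA, BCL11B and GDF6, the 100 nM arrays already lay below DMSO. CENPA, the centromere's own histone H3 variant, had 10.51 and 10.31 in DMSO cells, then 9.58 and 9.56 at 100 nM and 6.27 and 6.14 at 500 nM. The step was -0.84 between DMSO and 100 nM and -3.37 between the doses (10.3-fold lower). BCL11B, a zinc finger factor gene that EWS/FLI activates, had 10.90 and 10.77 in DMSO cells, then 10.05 and 10.08 at 100 nM and 6.89 and 6.79 at 500 nM (-3.22 between the doses, 9.35-fold lower). GDF6, a bone morphogenetic protein ligand gene, was at -1.01 between DMSO and 100 nM and at -3.20 between the doses. HJURP, the chaperone that loads CENPA at centromeres, had 6.154 and 6.281 at 500 nM against 9.503 and 9.506 at 100 nM (-3.29), and its step of -0.34 between DMSO and 100 nM did not pass the test (adjusted p = 0.244). For 6 further genes the 500 nM mean lay under 5.94, so that only a lower bound can be given. TADA1, a subunit of the SAGA coactivator complex, had 5.27 and 5.92 at 500 nM against 9.68 and 9.77 at 100 nM and was at least 13.7-fold lower. The others were URB2, a ribosome biogenesis gene (at least 9.37-fold lower), TDG, a DNA glycosylase gene (7.79), PHF12, a corepressor subunit gene (5.04), PAPOLG, a poly(A) polymerase gene (3.81), and ZNF184 (3.80). PHF12 had 6.21 and 6.07 with DMSO and 8.33 and 8.22 at 100 nM, against 4.57 and 5.15 at 500 nM, so that its 100 nM arrays lay highest.

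Genes of the kinases that THZ531 targets, and most tested elongation genes, were lower at the higher dose as deposited. CDK12 had 7.86 and 7.71 in DMSO cells, then 8.12 and 8.13 at 100 nM and 6.48 and 6.61 at 500 nM, a difference between the doses of -1.58 ± 0.21 as deposited and -0.997 ± 0.123 on the relative scale (adjusted p = 4.42e-07). CDK13 had 7.92 and 7.83 in DMSO cells, then 7.36 and 7.81 at 100 nM and 5.98 and 5.67 at 500 nM, at least 3.13-fold lower, with a relative difference of -1.17. CCNK, the gene of cyclin K, was at -1.05 as deposited and -0.46 on the relative scale (adjusted p = 0.00124). For each of the 3 genes both 500 nM arrays lay below both 100 nM arrays. Among 36 tested elongation genes, calls as deposited were 28 lower and 0 higher (median -1.02), beside 55.5% and 1.10% of all tested genes. Of the 36, 23 were lower and 6 higher on the relative scale, beside 29.7% and 29.1%, or 2 higher without replicate 2 at 500 nM. MEPCE, the capping enzyme of the 7SK RNA that restrains P-TEFb, was at -2.67 (6.39-fold lower) and LEO1, a subunit of the PAF1 complex, at -2.65. SUPT16H, a subunit of the histone chaperone FACT, had 10.13 and 10.25 at 500 nM against 10.16 and 10.24 at 100 nM, and its groups overlapped.

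Among 30 tested genes of 3′ end processing and termination, calls as deposited were 22 lower and 2 higher (median -0.96), beside 55.5% and 1.10% of all tested genes. FIP1L1, a subunit of the cleavage and polyadenylation factor, had 6.44 and 6.55 at 500 nM against 9.79 and 9.14 at 100 nM (-2.97, 7.82-fold lower). PCF11, which couples cleavage to termination and was named after its values were seen, was at least 1.75-fold lower. The 2 that were higher were SSU72, a phosphatase of the polymerase tail, and RPRD1A, which binds that tail. SSU72 had 10.40 and 10.19 in DMSO cells, then 9.07 and 9.06 at 100 nM and 9.63 and 9.63 at 500 nM, so that its lowest level was at 100 nM. It was higher by 0.56 as deposited and 1.15 on the relative scale, and RPRD1A by 0.50 and 1.08. Both calls as deposited were lost without any 1 of the 4 arrays, and both held on the relative scale. The 36 tested splicing factors and CLK kinase genes had 26 lower and 0 higher calls as deposited, beside the same shares, with RBM5, a regulator of exon choice in apoptosis genes, at -2.79. On the relative scale 10 of the 36 were lower and 7 higher, beside 29.7% and 29.1% of all tested genes.

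In the list of the DNA damage response and homologous recombination, calls as deposited between the doses were 19 lower and 1 higher of 32 tested genes, beside 55.5% and 1.10% of all tested genes, with a median of -0.59 against -0.52. On the relative scale 11 were lower and 8 higher, and the median was -0.01 between the doses, beside -0.47 between DMSO and 100 nM, which shares the 100 nM arrays. The 1 higher gene of the list was BRCA1, a gene of homologous recombination, with 8.193 and 7.997 in DMSO cells, then 6.21 and 6.29 at 100 nM and 7.12 and 6.82 at 500 nM. Both 500 nM arrays lay between the other groups. Its difference was 0.72 ± 0.21 as deposited (adjusted p = 0.00177, or 0.0818 if replicate 1 at 500 nM was left out) and 1.30 ± 0.12 on the relative scale. RAD54B, a recombination helicase gene, had 6.98 and 6.97 in DMSO cells, then 8.21 and 8.25 at 100 nM and 6.06 and 6.33 at 500 nM (-2.04), which put its highest level at 100 nM. RNF8, a ubiquitin ligase gene of break signalling, was at -1.63.

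Of 39 tested G1/S and DNA replication genes 18 were lower and 3 higher as deposited, beside 55.5% and 1.10% of all tested genes. Relative calls were 11 lower and 16 higher, with a median of 0.22, and 12 lower and 11 higher without replicate 1 at 100 nM. GINS1, a subunit of the replicative helicase, had 10.60 and 10.49 in DMSO cells, then 8.15 and 8.35 at 100 nM and 8.78 and 8.71 at 500 nM. Its level at 500 nM was above that at 100 nM by 0.50 as deposited (adjusted p = 0.0236) and by 1.09 on the relative scale, and far under DMSO. The other 2 were GINS4 (0.47) and RRM2, the small subunit of ribonucleotide reductase, which was named after its values were seen (0.39). The 3 calls as deposited were 0 without either 500 nM array or replicate 1 of the 100 nM arrays, and 1 without replicate 2 at 100 nM. E2F3, an activating E2F gene, had 6.43 and 6.49 at 500 nM against 9.17 and 9.21 at 100 nM (-2.73, 6.63-fold lower). E2F8, a repressor E2F gene, had 8.32 and 8.22 in DMSO cells, then 5.87 and 6.19 at 100 nM and 3.65 and 3.91 at 500 nM, where its mean lay under 5.94. The cyclin E genes CCNE1 (at least 1.98-fold lower) and CCNE2 (at least 3.28-fold lower) were named after their values were seen.

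In the list of G2/M and mitosis 28 of 39 tested genes were lower and 0 higher as deposited, beside 55.5% and 1.10% of all tested genes, with a median of -0.98 against -0.52. Of the 39, 21 were lower and 8 higher on the relative scale, with a median of -0.40. The 8 were 5 without replicate 2 at 500 nM or without replicate 1 at 100 nM. After CENPA the lowest was KIF23, a kinesin of cytokinesis, with 6.72 and 7.15 at 500 nM against 9.55 and 9.54 at 100 nM (-2.61, 6.11-fold lower). CENPK, a kinetochore gene, had a difference of 0.20 that did not pass the test as deposited.

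Among p53 targets the 3 that were higher stood against 18 lower of 24 tested, beside 1.10% and 55.5% of all tested genes, with a median of -0.92. Relative calls were 12 lower and 5 higher. Besides PLK2 the 3 held GADD45A, a stress sensor gene, and PMAIP1, which encodes the BH3-only protein NOXA. GADD45A had 8.56 and 8.55 in DMSO cells, then 9.90 and 9.96 at 100 nM and 10.90 and 10.90 at 500 nM, a difference of 0.97 ± 0.19 (1.96-fold) with the 3 groups apart. PMAIP1 was higher by 0.51 as deposited (adjusted p = 0.0228), a call lost without any 1 of the 4 arrays, and by 1.09 on the relative scale. The lowest were PPM1D, a phosphatase that shuts p53 signalling off, at least 5.96-fold lower, and SESN2, a sestrin of stress signalling to mTOR, at least 3.36-fold lower. MDM2, the ubiquitin ligase of p53, was named after its values were seen and was at least 3.96-fold lower. Of 24 apoptosis regulators 12 were lower and 1 higher as deposited, again beside 55.5% and 1.10%, and 6 were lower and 6 higher on the relative scale. As deposited BIRC2, an inhibitor of apoptosis, was at -1.75 and FADD, the adaptor of death receptors, at -1.60.

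The fusion partner genes FLI1 and EWSR1 were lower as deposited, and neither passed the test on the relative scale. FLI1 had 8.996 and 8.961 in DMSO cells, then 6.18 and 6.35 at 100 nM and 5.87 and 5.45 at 500 nM. As deposited it fell by 2.72 at 100 nM against DMSO, and the step between the doses, with a 500 nM mean under 5.94, was -0.60 ± 0.21 (adjusted p = 0.00834) and -0.02 ± 0.14 on the relative scale (adjusted p = 0.921). The call as deposited was lost without replicate 2 of either dose (adjusted p = 0.254 at 500 nM and 0.107 at 100 nM). EWSR1 had 9.74 and 9.76 at 500 nM against 10.29 and 10.45 at 100 nM, at -0.62 as deposited and -0.03 on the relative scale, where the direction turned to 0.22 with the arrays centred on the tested genes. The adjusted p as deposited was 0.00261, and 0.0665 without replicate 2 of the 100 nM arrays.

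Among 31 tested EWS/FLI-activated genes, calls as deposited were 16 lower and 0 higher (median -0.41). The shares of all tested genes were 55.5% and 1.10% (median -0.52), and 29.7% and 29.1% on the relative scale. Relative calls were 10 lower and 14 higher, or 9 higher without replicate 1 at 100 nM. NKX2-2, a homeobox gene that the fusion turns on in Ewing sarcoma, had 10.97 and 10.77 in DMSO cells, then 11.12 and 11.08 at 100 nM and 8.27 and 8.45 at 500 nM. Only the higher dose stood apart, by -2.74 ± 0.20 as deposited (6.66-fold lower) and -2.15 on the relative scale. PRKCB, a protein kinase C gene, did not pass the test as deposited, and its arrays had 11.62 and 11.70 at 500 nM against 11.61 and 11.67 at 100 nM. PAPPA, a protease gene of insulin-like growth factor binding proteins, had 9.70 and 9.61 in DMSO cells, then 8.48 and 8.38 at 100 nM and 8.81 and 8.89 at 500 nM, with a difference of 0.42 as deposited (adjusted p = 0.0654) and 1.01 on the relative scale. Of 19 tested EWS/FLI-repressed genes 11 were lower and 1, IER3, was higher as deposited, beside the same 55.5% and 1.10%, with a median of -0.54. Relative calls of these 19 were 4 lower and 8 higher. FOXO3, a forkhead tumour suppressor gene, was at -2.37 and FOXO1 at -1.63.

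Transcription factor genes of Ewing sarcoma were lower in 26 of 31 tested cases as deposited, 17 without replicate 2 of the 100 nM arrays, and none was higher. The shares of all tested genes as deposited were 55.5% lower and 1.10% higher, and 12 of the 31 had a 500 nM mean under 5.94. On the relative scale 15 were lower and 3 higher, beside 29.7% and 29.1% of all tested genes, with a median of -0.32. PAX7, a paired box gene of muscle and neural crest lineages, had 10.46 and 10.28 in DMSO cells, then 7.46 and 7.64 at 100 nM and 8.01 and 7.98 at 500 nM. It had its lowest level at 100 nM, and the difference between the doses was 0.45 ± 0.21 as deposited (adjusted p = 0.0547) and 1.03 on the relative scale. ZEB2, a repressor of epithelial genes that was named after its values were seen, was at least 3.37-fold lower. Genes of Wnt, TGF-beta, BMP and Hippo signalling had the lowest median of the lists, at -1.24 as deposited and -0.65 on the relative scale. Of 25 tested, 22 were lower and 0 higher as deposited, beside the same 55.5% and 1.10%, and 7 had a 500 nM mean under 5.94. The lowest were GDF6 and AJUBA, a LIM protein gene of Hippo signalling with a 500 nM mean under 5.94.

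**Figure D4:**
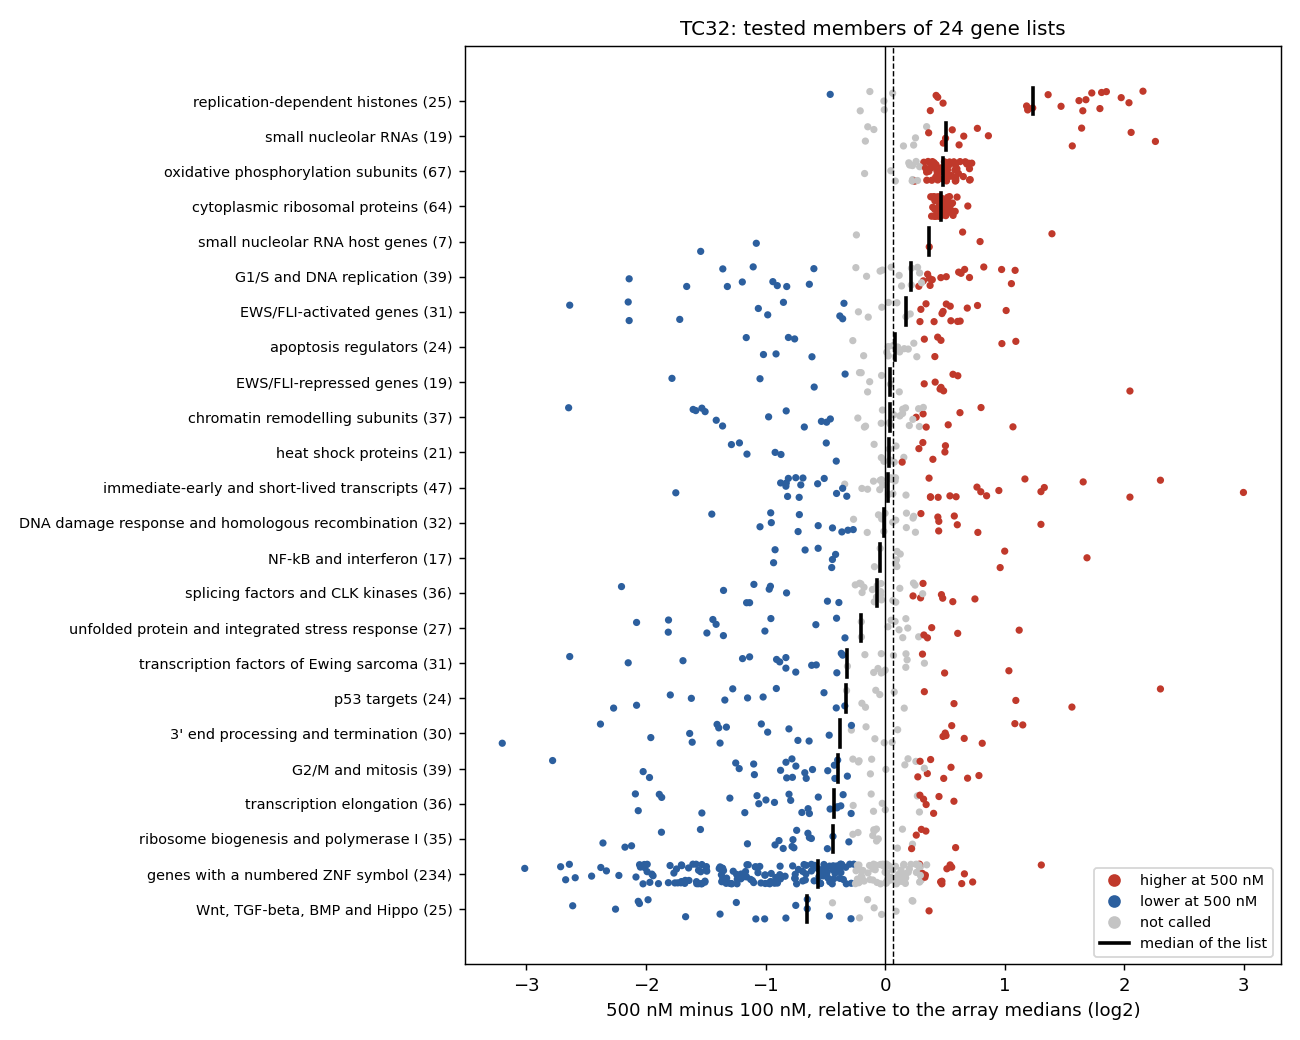
The 500 nM minus 100 nM difference relative to the array medians (log2) of each tested member of 24 gene lists, ordered by list median, with the number tested in brackets. Red and blue points passed the test, black bars are list medians and the dashed line is the median of all tested genes, 0.07. Histones have the highest median, 1.23, and Wnt, TGF-beta, BMP and Hippo genes the lowest, -0.65.

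Genes of the ribosome and of respiration had medians near zero between the doses as deposited. The counts that follow stand beside 55.5% lower and 1.10% higher of all tested genes as deposited. On the relative scale these shares were 29.7% and 29.1%. Of 64 tested cytoplasmic ribosomal protein genes 0 were called lower and 0 higher by limma as deposited, with differences between -0.21 (RPL4) and 0.10 (RPL27A) and a median of -0.12. With the spread taken from the 6 TC32 arrays alone 26 of them were lower, beside 7421 of all 10162 tested genes. On the relative scale all 64 were higher, with a median of 0.47. The shift that centring removed, -0.59, was larger in size than any of their differences as deposited. The relative sign of all 64 was thus set by centring and is no rise in signal. RPS6, a protein of the small subunit, had 13.08 and 13.11 at 500 nM against 13.11 and 13.05 at 100 nM, and its groups overlapped. Under quantile normalisation the relative differences of RPL4 (-0.048) and RPL26 (-0.0379) turned sign. Of 67 oxidative phosphorylation genes 3 were lower as deposited, SDHD being the lowest at -0.76. They were 1 without replicate 1 at 500 nM or replicate 2 at 100 nM, and 25 with the spread of the 6 TC32 arrays, while 54 were higher on the relative scale. Ribosome biogenesis genes differed from the ribosomal proteins in their counts, with 29 of 35 tested lower and 0 higher as deposited and a median of -1.02. TAF1A, a subunit of the polymerase I initiation factor, was at least 6.09-fold lower, and NHP2, a protein of box H/ACA particles, had 11.76 and 11.74 at 500 nM against 11.73 and 11.76 at 100 nM.

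The counts of the remaining lists stand beside 55.5% lower and 1.10% higher of all tested genes as deposited. On the relative scale the shares of all tested genes were 29.7% and 29.1%. Chromatin remodelling subunits had 22 lower and 1 higher of 37 tested, with CHD1 at least 8.21-fold lower and PBRM1, a subunit of the PBAF complex, higher by 0.48 (adjusted p = 0.0379). The PBRM1 call was lost without any 1 of the 4 arrays. Unfolded protein and integrated stress response genes had 19 lower and 1 higher of 27, XBP1, a transcription factor of that response, at least 3.85-fold lower and the kinase gene EIF2AK4 higher by 0.53, a call that was also lost without any 1 of the 4 arrays. Heat shock protein genes had 17 lower and 0 higher of 21, and 11 lower without replicate 1 of either dose, with DNAJA2 at -1.87. NF-kB and interferon genes had 12 lower and 1 higher, CCL2, of 17. Relative calls were 13 lower and 7 higher for chromatin remodelling subunits, and 12 lower and 5 higher for the stress response genes. They were 7 lower and 6 higher for heat shock protein genes, with a median of 0.03, and 7 lower and 3 higher for NF-kB and interferon genes. Genes with a numbered ZNF symbol, mostly zinc finger repressors, had 198 lower and 1 higher of 234 as deposited and 150 lower and 14 higher on the relative scale, with medians of -1.15 and -0.56. The 14 were 8 without replicate 1 at 500 nM. Their signals were low: the 500 nM mean lay under 5.94 for 161 of them. ZNF227 was at least 5.53-fold lower.

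Genomic span, the length of a gene from start to end, read from RefSeq annotation of GRCh38.p14 for 10160 genes, was set beside the difference as a description. In 5 equal groups of increasing span the relative medians were 0.18 up to 8.78 kb, 0.09, 0.02, -0.02 and, above 86.4 kb, 0.05. The shortest group held 43 of the 112 genes called higher as deposited, and 18 of the 43 were histone genes or small nucleolar RNAs. Signal level moved with the difference as well, with relative medians of 0.15, 0.05, -0.12, -0.13 and 0.23 in 5 groups of increasing mean signal. The part of either in the other was not tested.

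In A673, on arrays that TC32 does not share, the step between the doses was in the same direction for most genes called lower in TC32. Relative to the array medians, 2551 genes (25.1%) were lower and 1062 (10.5%) were higher in A673 at 500 nM than at 100 nM. The 2190 genes lower in both lines were 72.5% of those of TC32 and 85.8% of those of A673. The 789 genes higher in both were 26.6% of those of TC32 and 74.3% of those of A673. Of the genes lower in TC32 12 were called higher in A673, and of those higher in TC32 9 were called lower. EGR1 was higher in both lines, by 3.00 in TC32 and 2.11 in A673 (adjusted p of the difference = 0.00221), and so were SAT1 (1.72 and 1.61) and SNHG17 (1.40 and 1.32). KANK1 was lower in both, at -3.25 in TC32 and -2.12 in A673.

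The difference of the 2 steps, TC32 minus A673, was tested directly and was below zero for 622 genes (6.12%) and above zero for 486 (4.78%). These counts depended on single arrays. The count below zero was 356 without TC32 500 nM replicate 1, 308 without A673 500 nM replicate 1, 305 without A673 100 nM replicate 1 and 353 without its replicate 2. The count above zero was 165 without TC32 500 nM replicate 2, 177 and 879 without TC32 100 nM replicates 1 and 2, 158 and 204 without A673 500 nM replicates 1 and 2, and 171 and 145 without A673 100 nM replicates 1 and 2. The replicates of A673 at 500 nM had array medians of 7.98 and 7.43. The 10 genes picked by this difference, FLI1 and MYC passed the test with each of these arrays left out.

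ID4, a gene of an inhibitor of bHLH factors, had 6.83 and 7.01 at 500 nM against 9.77 and 9.76 at 100 nM in TC32, and 10.29 and 9.84 at 500 nM against 10.50 and 10.50 at 100 nM in A673. The step was thus seen on the TC32 arrays, and the difference between the lines was -2.04 ± 0.18 on the relative scale (adjusted p = 1.04e-06). BAMBI, a decoy receptor of TGF-beta signalling, was at -2.06 in TC32 and -0.26 in A673, PAX6, a paired box gene of neural development, at -1.94 and -0.23, and ZFAND5 at -2.79 and -1.24. FOS had 11.795 and 11.41 at 500 nM against 10.43 and 9.93 at 100 nM in A673, a relative step of 1.64 that TC32 did not have (-0.04). PLK2 was on the other side, at 2.30 in TC32 and 0.32 in A673, as were H3C4 (2.16 and 0.82), FBXO28, a ubiquitin ligase subunit gene (0.76 and -0.50), PDK1, a mitochondrial kinase gene (0.79 and -0.44), and TMEM45A (1.01 and -0.19). FLI1 was at -0.02 in TC32 and -1.004 in A673, where it had 8.39 and 8.01 at 500 nM against 9.55 and 9.29 at 100 nM. In TC32 the FLI1 mean at 500 nM, 5.66, lay under 5.94, so neither that step nor the difference between the lines is a measure of size. MYC was at -0.35 in TC32 and 0.41 in A673. Ribosomal protein genes had relative medians of 0.47 in TC32 and 0.15 in A673, and 34 of the 64 tested were called above zero in the difference. CDK12 (-0.997 and -0.809), CDK13 (-1.17 and -1.02) and CCNK (-0.46 and -0.49) had differences between the lines that did not pass the test.

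**Figure D5:**
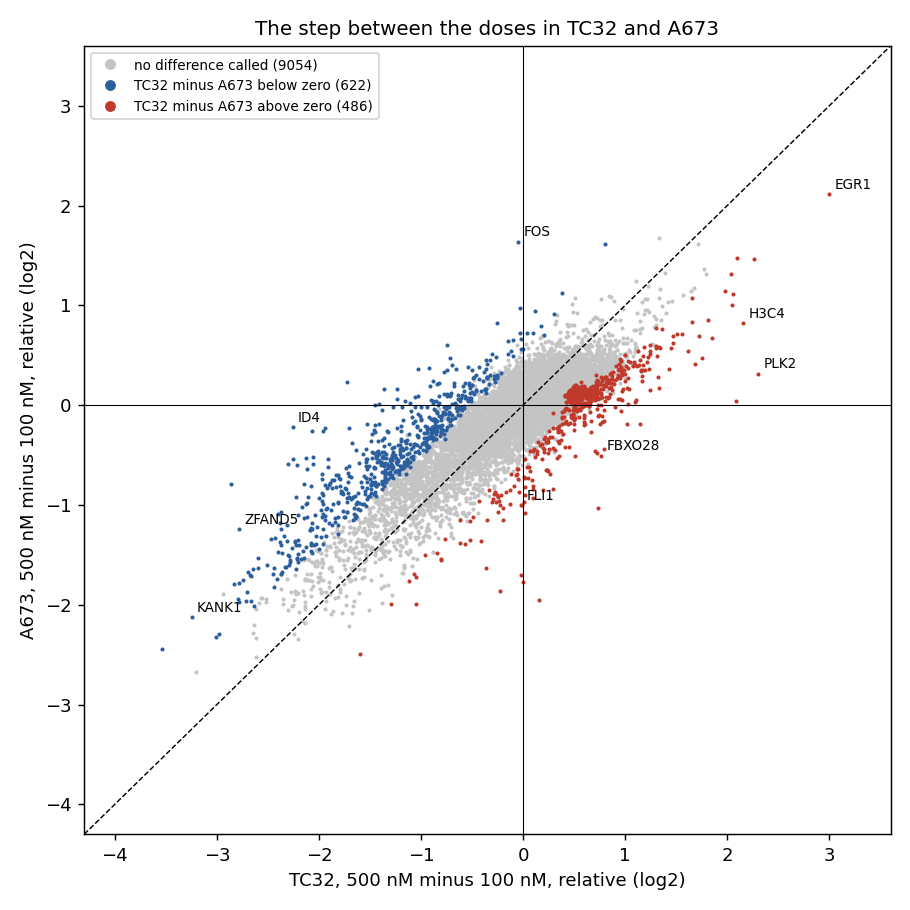
Each point is 1 tested gene, with its 500 nM minus 100 nM difference relative to the array medians (log2) in TC32 on the x axis and in A673 on the y axis. Red and blue points passed the test of the difference between the lines and the dashed line marks equal steps. EGR1 is high in both lines, PLK2 lies to the right at 2.30 in TC32 and 0.32 in A673, FOS lies high at 1.64 in A673, and ID4 lies to the left at -2.26 in TC32.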

How the data were processed

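Array expression values were used as the authors deposited them, as log2 signals. Their normalization is not given in the sources used here. MAS5, GRCh37 and hg19 are named in the submitters' processing notes without a role. The table held 49395 probe sets, 44994 annotated to 1 gene, 1832 to several and 2569 to none. Probe sets of 1 gene were kept. The 2829 entries with at most 2 decimals were left out, which left 17029 genes; 92 whose values equalled those of another symbol were also left out. For 41 genes with more than 1 distinct entry, the one with the highest mean was taken.

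The 10162 genes at or above the 40th percentile of mean signal (5.94) were fitted with limma 3.58.1 (R 4.3.3), 1 mean for each of the 6 groups over all 12 arrays, eBayes with trend, two-sided. The median residual SD was 0.189 as deposited (0.112 without either A673 500 nM array) and 0.118 on centred values, with 6 residual degrees of freedom. As deposited the prior degrees of freedom were infinite, so limma set a gene's spread by its mean signal and not by its own replicates. On simulated data of 10162 genes for this comparison, 96 of 100 genes lowered by 1 and 100 of 100 lowered by 2 were recovered, with 9 false calls. The simulated data took the levels and spread of the centred fit, with independent noise and no shift of whole arrays. No other genes differed between the doses in TC32. The simulation therefore does not model the calls as deposited. The number of arrays limits the precision.

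Members and lists were chosen with earlier results of these data known. Genes were named by rule. The 12 highest and 12 lowest differences as deposited were taken among genes called on both scales. These genes had to have both group means above 5.94 and no overlap of arrays. The 6 lowest called genes whose 500 nM mean lay under 5.94 were added. CDK12, CDK13, CCNK, FLI1, EWSR1 and MYC were always named, as were the 2 highest and 2 lowest relative differences of each list. The last were the 5 highest and 5 lowest differences between the lines. They were taken among genes that passed that test and whose means in both lines at both doses were at or above 5.94. Of the 12 lowest, 1 is not reported here. Folds against a mean under 5.94 were counted from that level. Promoter sequences and gene spans are RefSeq's (GRCh38.p14), joined with pandas 2.3.3 in Python 3.11.15. Figures were drawn with matplotlib 3.10.9. Lists got no set test. Alternatives were other filters, normalizations, arrays in the fit, a replicate block, the left-out entries and leaving out each array.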

Additional observations from a re-analysis of the deposited data

Results flagged for a closer look

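For the 10 genes picked by it, and for FLI1 and MYC, the step of 500 nM against 100 nM differed between the lines by limma's test of the difference itself, TC32 minus A673 on the relative scale. Below zero were ID4 (-2.04), BAMBI (-1.80), PAX6 (-1.71), FOS (-1.68), ZFAND5 (-1.54) and MYC (-0.76). Above zero were PLK2 (1.99), H3C4 (1.33), FBXO28 (1.27), PDK1 (1.23), TMEM45A (1.21) and FLI1 (0.99). The size of the difference in the 10 picked genes is a description, and FLI1 and MYC were named by symbol. For FLI1 the TC32 mean at 500 nM, 5.66, lay under 5.94, so its difference is no measure of size.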

How the results depend on the processing

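The counts of the comparisons were as follows under the alternatives that moved them by more than 1.5 times and with single arrays left out, and the cause was not tested. Genes higher as deposited numbered 112, and 69 with a filter at the 60th percentile of signal, 235 with the 6 TC32 arrays alone in the fit, 233 with the 4 treated TC32 arrays alone, 2961 with centred arrays and 61 to 80 with 1 array left out. Genes lower as deposited numbered 5636, 3021 with centred arrays and 4237 to 4719 with 1 array left out. Genes higher relative to the medians numbered 2961, 4457 without a filter, 5266 with arrays centred on the tested genes and 2142 to 2840 with 1 array left out, while genes lower stayed within 1.5 times of 3021 under every alternative run (2549 to 3005 with 1 left out). The line difference above zero was called for 285 genes without a variance trend, 182 with the 2-decimal entries, 891 after quantile normalisation, 1632 centred on the tested genes and 145 to 879 with 1 array left out. Below zero it was 383 with the 2-decimal entries, 1165 after quantile normalisation and 305 to 590 with 1 left out. Relative signs turned for RPL4 (-0.048), RPL26 (-0.0379) and FBL (-0.0415) under quantile normalisation and for EWSR1 (0.22) centred on the tested genes. Same-numbered arrays of TC32 had correlated deviations of 0.24 between 500 nM and 100 nM, -0.07 between 500 nM and DMSO and -0.16 between 100 nM and DMSO, so the numbers were not taken to pair the samples. A replicate block gave 6119 lower and 129 higher as deposited, 3010 lower and 2992 higher relative to the medians, and 689 below and 705 above zero between the lines. The number of arrays limits what small differences can show.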
